A study of Mus musculus with 15 samples.

Results

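The 5 mature miRNAs miR-3968, miR-6240, miR-1957a, miR-3535 and miR-5099 are late entries of miRBase, the registry that numbers miRNAs in the order in which they were reported. They were picked by name out of 1915 mouse miRNAs in the deposited table, as high-numbered entries that moved between the treatment groups and that may hold fragments of other small RNAs. The values that chose them are the group differences of the same 15 libraries, with no numerical threshold, so their group differences are given as a description and without a test. All 5 were among the 351 miRNAs that passed the filter on low counts, and each had a count in 15 of 15 libraries.

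The libraries are small RNA sequencing of mouse pancreatic acini, the enzyme-secreting units of the exocrine pancreas, of C57BL/6 animals aged 7 to 8 weeks. The groups of 3 libraries were caerulein at 100 nM, which the labels call pathological, caerulein at 100 pM, which they call physiological, taurolithocholic acid 3-sulfate (TLC-S) at 250 uM, TLC-S at 62.5 uM, and control with no agent. Caerulein is a peptide that activates the cholecystokinin receptor, and TLC-S is a bile acid that injures acinar cells. The labels state that the sequenced RNA was pooled from 3 acinar preparations but not which library holds which, so the errors given are those between libraries and may be technical.

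A miRNA is cut from the stem of a folded hairpin by Drosha and Dicer and then guides Argonaute proteins to messenger RNAs through its seed, bases 2 to 8 from its 5′ end. Small RNA sequencing also reads short pieces of transfer RNA, ribosomal RNA and small nucleolar RNA (snoRNA), the class that guides chemical modification of ribosomal RNA in the nucleolus. Some registered miRNAs have been questioned because their reads may be such pieces, and a count of reads at registered sequences does not separate them.

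RefSeq (GRCm38.p6) gave a mature sequence for 3 of the 5, shown because their lengths, ends and seeds are compared with other miRNAs in the next paragraphs. The seed is in capitals:
mmu-miR-3968: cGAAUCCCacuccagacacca
mmu-miR-6240: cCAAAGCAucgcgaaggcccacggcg
mmu-miR-3535: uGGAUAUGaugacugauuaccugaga
A hairpin was found for those 3 and for miR-5099. The hairpins of miR-3535 and miR-5099 follow, the first because a snoRNA is annotated inside it and the other because it is the only sequence of miR-5099 in the table used. Capitals mark the mature miR-3535, bases 41 to 66 of its hairpin:
mmu-mir-3535 hairpin: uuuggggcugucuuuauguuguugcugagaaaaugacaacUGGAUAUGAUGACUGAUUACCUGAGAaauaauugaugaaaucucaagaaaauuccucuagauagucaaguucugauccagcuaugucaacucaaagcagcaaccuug
mmu-mir-5099 hairpin: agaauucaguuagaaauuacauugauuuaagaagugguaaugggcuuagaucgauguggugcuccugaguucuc

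Mature miR-3535 and miR-6240 were both 26 nt long, and miR-3968 was 21 nt long. Of 1679 mouse mature miRNAs with a sequence, 14 (0.834%) were 26 nt or longer, and the median was 22 nt. The seeds of miR-3968 and miR-3535 occurred in no other mouse mature miRNA of the table, and the seed of miR-6240 was shared with miR-330-3p. How many of the 1679 have an unshared seed was not counted, so this does not set these members apart. miR-6240 held 69.2% G and C bases, against a median of 52.2% over the 1679, whereas miR-3535 held 38.5% and miR-3968 57.1%.

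The sequence of miR-3535 lies inside an annotated snoRNA. Its hairpin covers chr1:86351981-86352127 on the minus strand of GRCm38 within Ncl, the gene of the nucleolar protein nucleolin, and overlaps an exon of a retained-intron transcript of that gene. On the same strand GENCODE M21 annotates the 80-nt snoRNA gene Gm24148, at chr1:86352008-86352087, and RefSeq uses the name Gm24148 for the whole 147-nt hairpin. Mature miR-3535 is identical to bases 1 to 26 of that snoRNA. The nearest other small RNA genes were the snoRNAs Snora75 at 696 nt and Snord82 at 4133 nt. The letters UGAUGA, the C box of C/D snoRNAs, stand in mature miR-3535 and in 12 of 1679 mature sequences in all (0.715%), counting the RNA strand only.

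**Figure D1:**
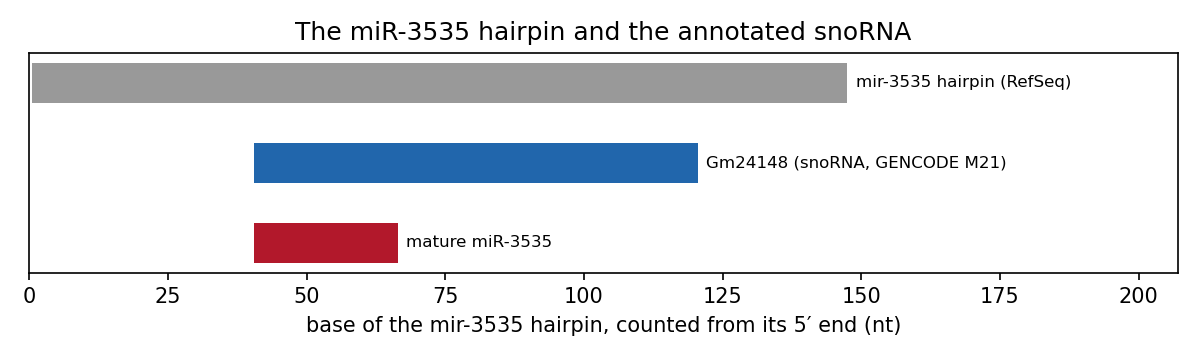
Positions of mature miR-3535 and of the annotated snoRNA Gm24148 within the 147-nt hairpin; the x axis counts bases of the hairpin from its 5′ end, and each bar spans 1 annotated RNA. The snoRNA spans bases 41 to 120, and the mature miRNA starts at the same base and ends at base 66.

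Exact matches of this kind were rare among mouse miRNAs. Of the 1679 mature sequences, 27 (1.61%) matched a GENCODE transcript of another small RNA class without a mismatch, among 3910 such transcripts, and 22 of the 27 matched a snoRNA or a small Cajal body RNA. Some of the 27 matched a gene named for the miRNA itself but put in one of those classes. They included miR-1839-5p and both arms of miR-3068. miR-6240 had at least 9 mismatches and miR-3968 at least 7 to any of the 3910 transcripts, against a median of 6 over all mature sequences. Mismatches were counted over the full length without gaps. A longer sequence has more bases to mismatch, and miR-6240 has 26 nt against a median of 22 nt. The numbers of mismatches are therefore not on a like scale, and partial matches were not searched. Nuclear transfer RNAs and the long ribosomal RNAs are not in that set of transcripts, so a match to them was not tested.

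miR-3968 ends in the letters CCA, which are also the last bases of a mature transfer RNA; 23 of 1679 mature sequences (1.37%) end so. Its gene Mir3968, at chr11:115447961-115448060 on the minus strand, lies opposite an exon of the protein-coding gene Trim80, and the nearest annotated transfer RNA gene was n-TRtcg4, 34110 nt away. The cores of the inner boxes of transfer RNA genes, searched on the RNA strand as the letters UGGNNNAG and GUUCGANNC, were in none of the 3 mature sequences or 4 hairpins of the members, and were in 14.8% and 0.498% of 1005 mouse hairpins. A missing match says only that these letters are not in these sequences. Only whole patterns were searched. Mature miR-3968 starts with the letters CGAAUC, which fit CGANNC, the end of GUUCGANNC. How many other mature sequences start so was not counted.

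The other members lie apart from annotated small RNA genes. Mir6240, at chr5:114851948-114852064 on the plus strand, and Mir5099, at chr12:36816205-36816278 on the plus strand, overlap no other annotated gene. Mir1957a, at chr4:119129779-119129844 on the plus strand, lies in an intron of Slc2a1, the gene of the glucose transporter GLUT1, on the same strand. Each of the 5 had 1 precursor in the deposited table and a name without an arm suffix, the ending that marks the 5′ or the 3′ product of a hairpin.

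All 4 hairpins of the members had weaker predicted folds than the median mouse hairpin. The minimum free energy per base was -0.211 kcal/mol for miR-6240, -0.261 for miR-3535, -0.289 for miR-3968 and -0.359 for miR-5099, against a median of -0.406 over 1005 mouse hairpins. Weaker folds than these were predicted for 1.39%, 4.78%, 9.05% and 30.8% of hairpins, in the same order. These hairpins were 117, 147, 100 and 74 nt long, again in that order, against a median of 79 nt. The energies per base were not matched for hairpin length. The bases of the mature miRNA were paired for 61.9% in miR-3968, 73.1% in miR-6240 and 76.9% in miR-3535, against a median of 81.0%, and 3.04% of 1581 placed mature miRNAs were less paired than miR-3968. All 4 hairpins had a single loop, as did 94.5% of mouse hairpins.

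**Figure D2:**
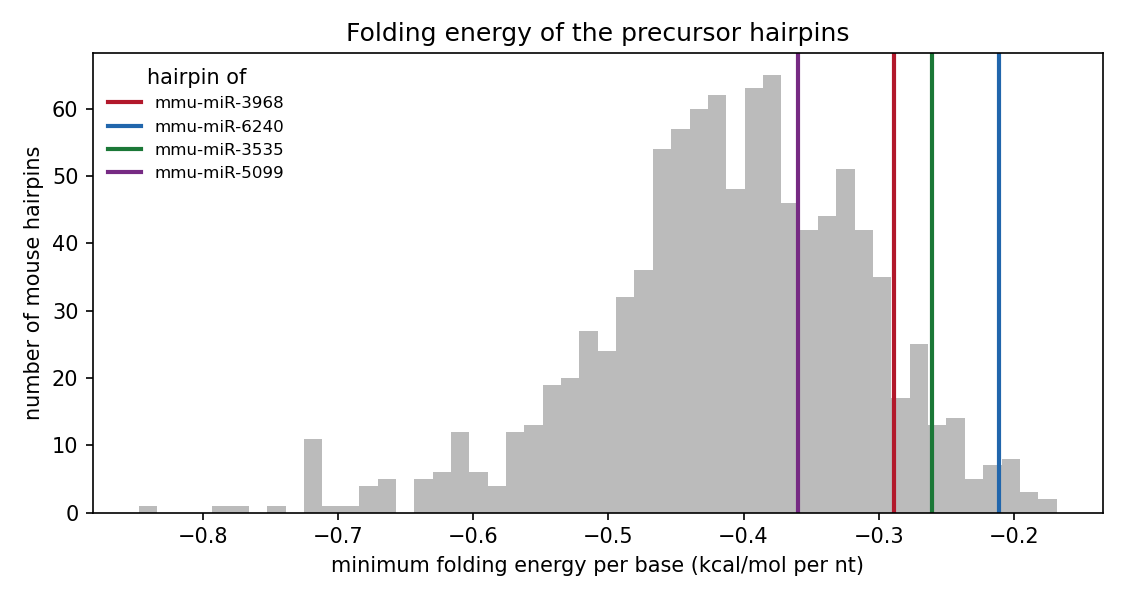
Histogram of the predicted minimum folding energy per base (kcal/mol per nt, x axis; less negative is weaker) of 1005 mouse hairpins (number per bin, y axis), with a vertical line for each of 4 members. The lines of miR-6240, miR-3535 and miR-3968 lie in the right tail, and that of miR-5099 lies nearer to the median of -0.406.

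Library totals ran from 535473 counts in caerulein 100 nM replicate 2 to 5087728 in replicate 3 of that group, and the 5 members together held between 0.0324% and 0.0702% of the counts of a library. Levels are CPM, counts scaled to a common library size with TMM factors, which allow for a few very abundant miRNAs taking different shares. In control, the acinar marker miR-148a-3p took 50.5% of the counts of replicate 3, against 17.6% and 18.7% in replicates 1 and 2. It took 23.8%, 35.4% and 36.4% with caerulein 100 pM, where the TMM factors of replicates 2 and 3 were 0.768 and 0.794, and 42.7% in TLC-S 250 uM replicate 3; its part in the differences described next was not tested beyond the change of scaling. All 5 acinar markers were detected in every group. So were all markers listed for islet and neuroendocrine, endothelial, leukocyte, erythrocyte, mesenchymal and muscle cells. Detection alone therefore does not measure the purity of the acini. Averaged over the 15 libraries, miR-3535 was at 285 CPM, miR-5099 at 151 CPM, miR-3968 at 45.6 CPM, miR-6240 at 31.1 CPM and miR-1957a at 19.3 CPM. By level they ranked 100, 125, 178, 196 and 234 of the 351; a read stands for a whole short RNA, so levels were not divided by length. The ratio of the highest to the lowest library was 2.81 for miR-3535, 3.34 for miR-5099, 5.84 for miR-6240, 8.95 for miR-3968 and 9.99 for miR-1957a.

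miR-3968, the entry that ends in CCA, was higher with both doses of caerulein than in control and lower with the lower dose of TLC-S. It was at 75.4, 66.5 and 92.5 CPM with caerulein 100 nM, at 66.0, 70.8 and 55.1 CPM with caerulein 100 pM, at 42.5, 35.6 and 31.5 CPM with TLC-S 250 uM, at 11.6, 11.7 and 10.3 CPM with TLC-S 62.5 uM and at 40.7, 41.5 and 33.0 CPM in control. The caerulein groups overlapped each other and lay above all other libraries, TLC-S 250 uM overlapped control, and TLC-S 62.5 uM lay below every other library. The values with TLC-S 62.5 uM rest on 24, 29 and 15 counts. Group means were 78.1 ± 13.2 CPM with caerulein 100 nM, 64.0 ± 8.01 with caerulein 100 pM, 36.5 ± 5.57 with TLC-S 250 uM, 11.2 ± 0.743 with TLC-S 62.5 uM and 38.4 ± 4.71 in control (SD, n = 3 each). The log2 difference from control was 1.04 (SE 0.28, 95% interval from 0.47 to 1.61) with caerulein 100 nM and 0.74 (SE 0.28, 0.17 to 1.32) with caerulein 100 pM. It was -0.08 (SE 0.28) with TLC-S 250 uM and -1.77 (SE 0.30, -2.39 to -1.14) with TLC-S 62.5 uM. Scaled by library totals alone, caerulein 100 pM was at 66.0, 54.4 and 43.8 CPM against 45.5, 49.2 and 24.2 in control, so these groups then overlapped and the log2 difference was 0.47.

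**Figure D3:**
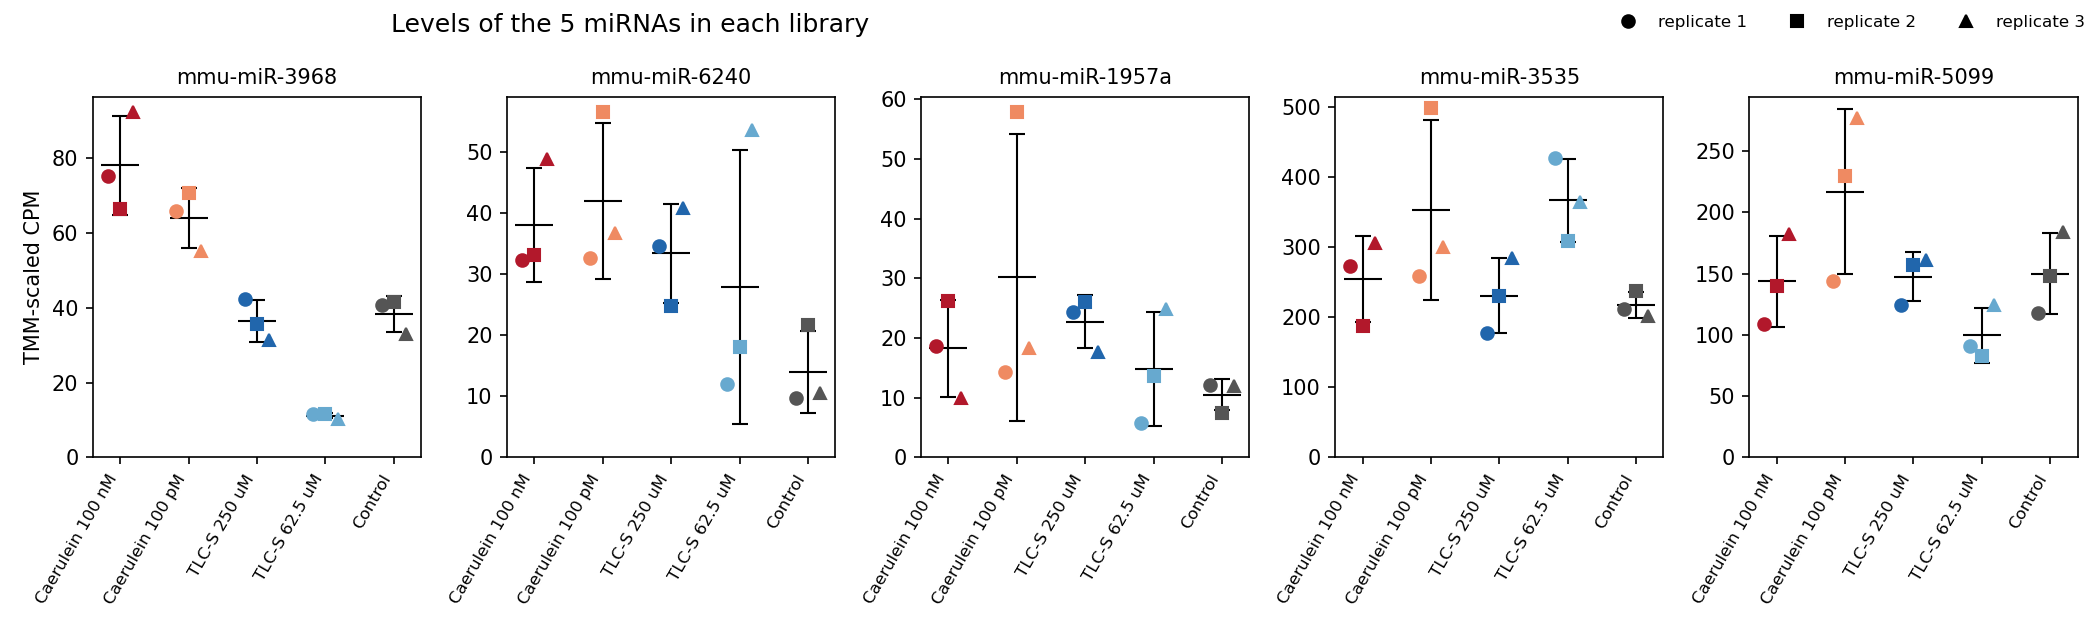
TMM-scaled CPM (y axis, from 0) of the 5 miRNAs in each of 15 libraries, by group (x axis); symbols mark replicates, and horizontal bars with whiskers give the mean and SD of 3 libraries. For miR-3968 the 3 TLC-S 62.5 uM libraries sit between 10.3 and 11.7 CPM, below the 33.0 to 41.5 CPM of control.

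miR-6240 was lowest on average in control. It was at 32.3, 33.2 and 49.0 CPM with caerulein 100 nM, at 32.7, 56.6 and 36.8 CPM with caerulein 100 pM, at 34.6, 24.8 and 40.9 CPM with TLC-S 250 uM, at 12.1, 18.1 and 53.7 CPM with TLC-S 62.5 uM and at 9.69, 21.7 and 10.5 CPM in control. Both caerulein groups and TLC-S 250 uM lay above every control library and overlapped each other, while TLC-S 62.5 uM ran from within the control range to 53.7 CPM in replicate 3. The log2 difference from control was 1.46 (SE 0.45, 95% interval from 0.52 to 2.39) with caerulein 100 nM and 1.58 (SE 0.46, 0.64 to 2.51) with caerulein 100 pM. It was 1.25 (SE 0.45, 0.31 to 2.18) with TLC-S 250 uM and 0.95 (SE 0.46, 0.01 to 1.89) with TLC-S 62.5 uM. Without replicate 3 of TLC-S 62.5 uM the last of these was 0.049. Without control replicate 2, at 21.7 CPM, the log2 difference was 1.96 with caerulein 100 nM and 1.76 with TLC-S 250 uM.

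miR-1957a was the least abundant of the 5 members. It was at 18.6, 26.2 and 9.98 CPM with caerulein 100 nM, at 14.3, 57.9 and 18.4 CPM with caerulein 100 pM, at 24.4, 26.1 and 17.7 CPM with TLC-S 250 uM, at 5.79, 13.7 and 24.8 CPM with TLC-S 62.5 uM and at 12.1, 7.48 and 11.9 CPM in control. The libraries of caerulein 100 pM and of TLC-S 250 uM lay above all control libraries, and the other treated groups overlapped control. With caerulein 100 pM the log2 difference from control was 1.55 (SE 0.53, 95% interval from 0.46 to 2.63), and without replicate 2 of that group, at 57.9 CPM, it was 0.57. With TLC-S 250 uM it was 1.11 (SE 0.53, 0.02 to 2.19), and with caerulein 100 nM and TLC-S 62.5 uM it was 0.69 (SE 0.54) and 0.47 (SE 0.53). Without TLC-S 62.5 uM replicate 3, at 24.8 CPM, the last of these was -0.13. Its counts ran from 12 to 94 per library.

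miR-3535, the entry inside the snoRNA, had its highest group means at the lower dose of each agent. It was at 273, 187 and 306 CPM with caerulein 100 nM, at 259, 499 and 300 CPM with caerulein 100 pM, at 178, 231 and 285 CPM with TLC-S 250 uM, at 428, 309 and 365 CPM with TLC-S 62.5 uM and at 212, 238 and 202 CPM in control. Caerulein 100 pM and TLC-S 62.5 uM lay above every control library, and both higher doses overlapped control. The log2 difference from control was 0.70 (SE 0.28, 95% interval from 0.13 to 1.27) with caerulein 100 pM and 0.76 (SE 0.28, 0.19 to 1.33) with TLC-S 62.5 uM. It was 0.24 (SE 0.28) with caerulein 100 nM and 0.092 with TLC-S 250 uM. Without caerulein 100 pM replicate 2, at 499 CPM, the difference in that group was 0.31. With library totals in place of TMM scaling, caerulein 100 pM was at 259, 384 and 238 CPM against 237, 282 and 148.2 in control, and these groups overlapped.

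miR-5099 overlapped control in every treated group. It was at 109, 140 and 182 CPM with caerulein 100 nM, at 143.99, 230 and 277 CPM with caerulein 100 pM, at 124, 157 and 161 CPM with TLC-S 250 uM, at 91.2, 82.8 and 125 CPM with TLC-S 62.5 uM and at 118, 148.4 and 183.9 CPM in control. The highest and the lowest group means were 216.8 ± 67.4 CPM with caerulein 100 pM and 99.6 ± 22.2 CPM with TLC-S 62.5 uM, on either side of 150.02 ± 33.1 CPM in control (SD, n = 3 each). The log2 difference from control was 0.53 (SE 0.28, 95% interval from -0.06 to 1.11) with caerulein 100 pM and -0.60 (SE 0.29, -1.19 to -0.01) with TLC-S 62.5 uM. It was -0.058 with caerulein 100 nM and -0.022 with TLC-S 250 uM.

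**Figure D4:**
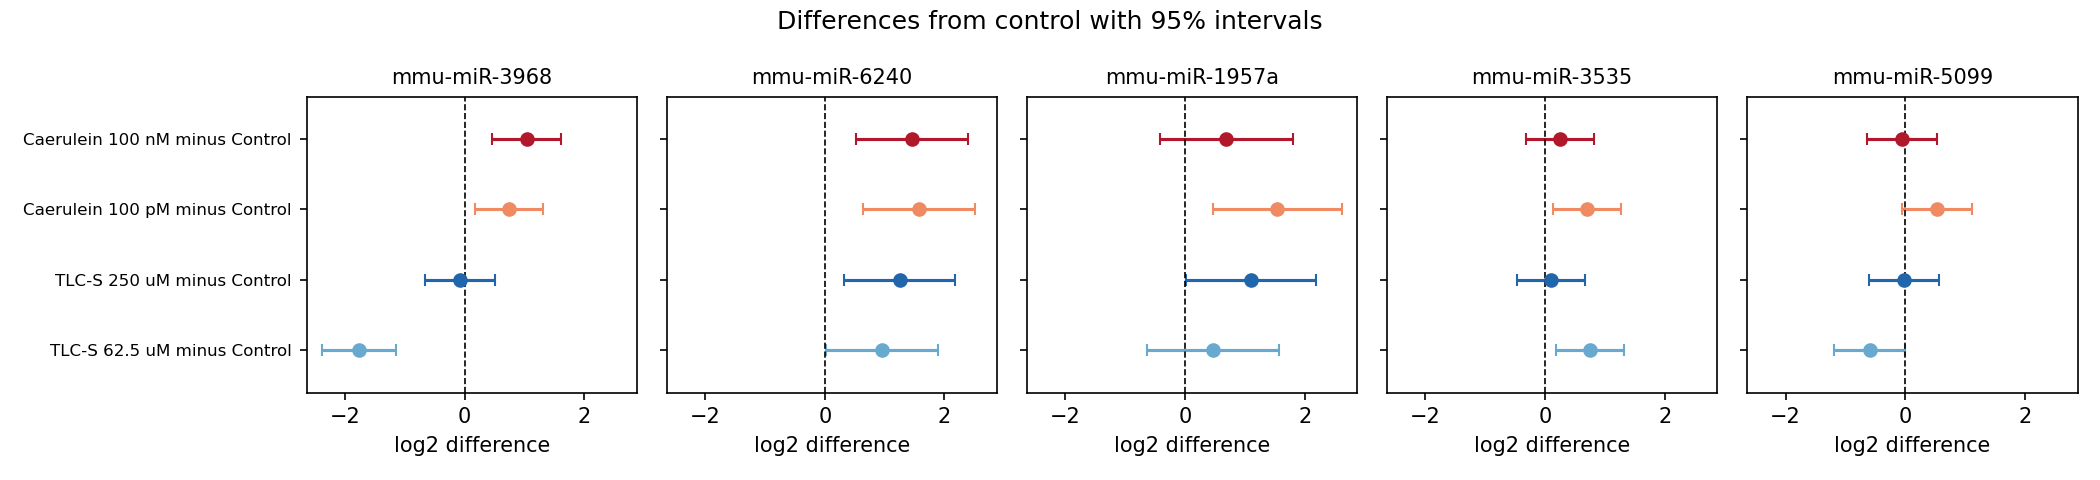
log2 difference from control (x axis) of each miRNA under each of the 4 treatments (y axis), with the 95% interval of the edgeR fit as whiskers and a dashed line at 0. For miR-6240 all 4 points lie to the right of 0, while miR-3968 spans -1.77 with TLC-S 62.5 uM to 1.04 with caerulein 100 nM.

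The counts of members that stood apart from control are given beside the same share over the 351 miRNAs, and nothing is read from them, because these differences chose the members. With caerulein 100 nM, 2 of 5 members did not overlap control, both above it, against 6.55% of the 351 in either direction. With caerulein 100 pM, 4 of 5 members lay above control, against 10.3% of the 351 that did not overlap. With TLC-S 250 uM, 2 of 5 lay above control, against 7.12% of the 351. With TLC-S 62.5 uM, 1 member lay above control and 1 below, against 12.3% of the 351. These comparisons share the control libraries.

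Between TLC-S 250 uM and 62.5 uM, 2 of 5 members did not overlap and differed in opposite directions, against 12% of the 351. miR-3968 was higher at 250 uM, by a log2 difference of 1.69 (SE 0.31), and miR-3535 was lower, with a log2 difference of -0.66 (SE 0.28). Between caerulein 100 nM and 100 pM, 0 of 5 members were apart, against 5.7% of the 351. Between caerulein 100 nM and TLC-S 250 uM, 1 of 5 was apart, against 5.41% of the 351, and it was miR-3968 at a log2 difference of 1.12 (SE 0.28). Between caerulein 100 pM and TLC-S 62.5 uM, 2 of 5 were apart, against 16.2% of the 351. They were miR-3968, with a log2 difference of 2.51 (SE 0.31, 95% interval from 1.88 to 3.14), and miR-5099, with 1.12 (SE 0.29, 0.53 to 1.72).

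The sample titles carry numbers in 3 series, each with 1 library of every group, which the choice of the members did not use. In an F test of the series within groups (edgeR, Benjamini-Hochberg over the 351), 6.55% of miRNAs passed and 0 of 5 members did. miR-5099 was the 1 member of 5 with an unadjusted p under 0.05 in edgeR, where 72 of the 351 miRNAs were under 0.05. It was also the 1 member that DESeq2 called after adjustment (adjusted p = 0.00601), among 36 miRNAs that DESeq2 called. Its mean levels were 117, 152 and 186 CPM in the series of the lowest, the middle and the highest numbers (unadjusted p = 0.00416, adjusted p = 0.0556, edgeR). The adjusted p was 0.036 with RLE scaling, 0.0382 with upper quartile scaling, 0.0312 without the 3 most abundant miRNAs and 0.362 with library totals (edgeR). It was 0.0173 with a filter at a mean of 10 CPM, 0.0723 without a filter and 0.0471 with robust dispersion (edgeR). The level of miR-5099 was highest in the series of the highest numbers in 5 of 5 groups after TMM scaling and in 3 of 5 with library totals. For miR-6240 the means were 24.3, 30.9 and 38.2 CPM (adjusted p = 0.327, edgeR). miR-1957a, miR-3535 and miR-3968 had adjusted p-values of 0.586, 0.882 and 0.896 in edgeR. What the number series stand for is not given in the labels.

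**Figure D5:**
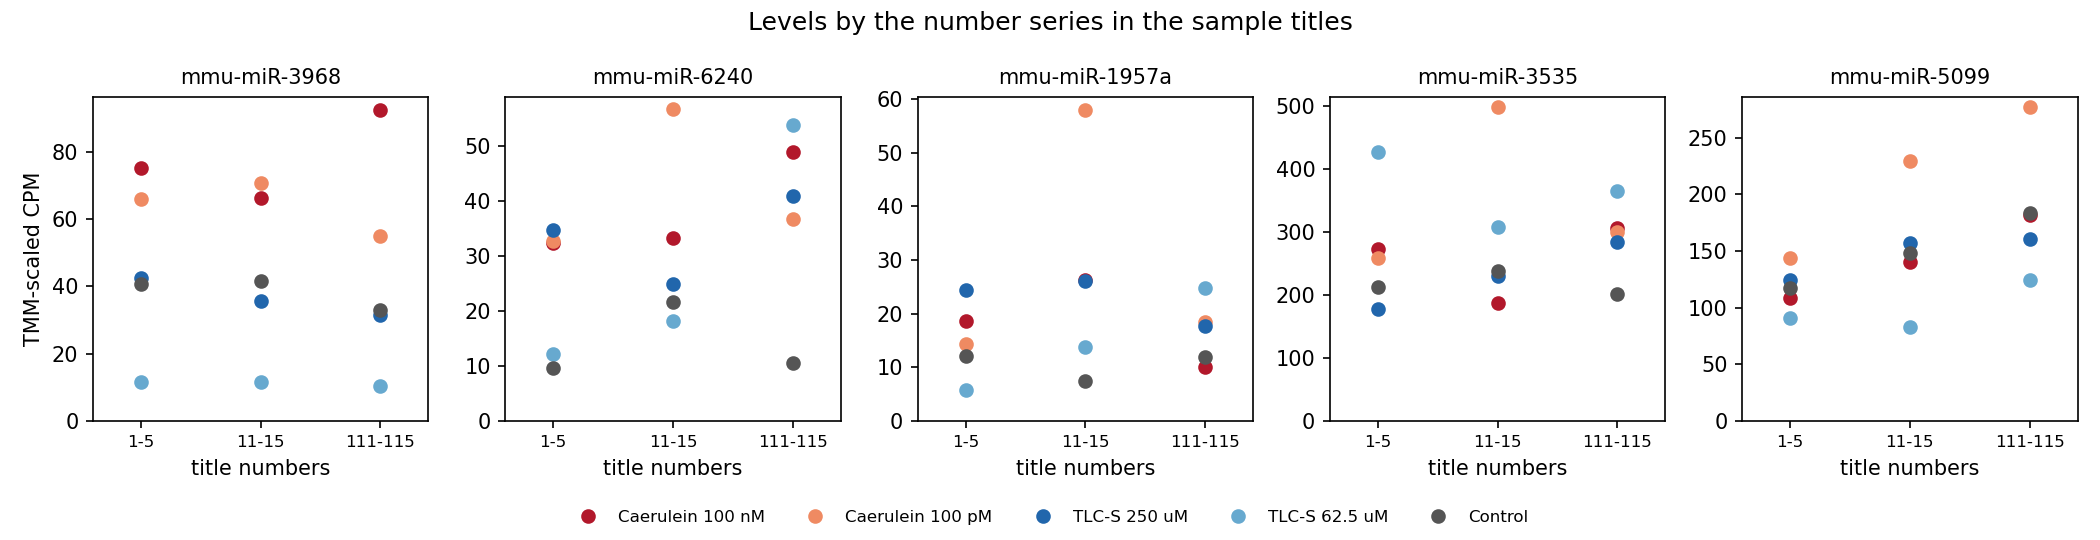
TMM-scaled CPM (y axis, from 0) of each miRNA in the 15 libraries by the number series of the sample titles (x axis); colours mark the 5 groups, with 1 library of each per series. For miR-5099 the library in the right-hand column is the highest of its group in all 5 groups, and in 3 of 5 with library totals.

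No relation of level to depth passed the test. Over the 15 libraries, the correlation of the log2 level of miR-1957a with the log10 library total was -0.43 (Pearson, permutation p = 0.11, adjusted over 5 members 0.55), with a Spearman rho of -0.58 (permutation p = 0.0244, adjusted 0.122). Without caerulein 100 nM replicates 2 and 3, the libraries farthest from the median total, r was -0.31. For miR-3535 Pearson's r was 0.31 and rho 0.33 (permutation p = 0.258 and 0.231, adjusted 0.645 and 0.578), and r was 0.081 without those libraries. For miR-6240 r was -0.10 and rho -0.12 (permutation p = 0.718 and 0.675, adjusted 0.953 and 0.783), and -0.35 without them. For miR-5099 r was 0.039 and rho 0.14 (permutation p = 0.891 and 0.63, adjusted 0.953 and 0.783), and -0.14 without them. For miR-3968 r was 0.016 and rho -0.079 (permutation p = 0.953 and 0.783, the same after adjustment), and -0.053 without them.

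Over the 15 libraries, which share their depth and scaling between miRNAs, the correlation of log2 levels between members was highest for miR-6240 and miR-1957a, at 0.62, and next for miR-3968 and miR-5099, at 0.57. It was lowest for miR-3968 and miR-3535, at -0.27, the only negative value; 9 of 10 pairs of members were positive, with a median of 0.34, against 49.99% of all pairs of the 351. These levels hold the group differences that chose the members, so nothing is read from that share. The miRNAs named next are the 3 highest of 350 correlations for each member, so their values are high by selection. The 95th percentile of the 350 was 0.58 for miR-3968, 0.61 for miR-6240, 0.55 for miR-1957a, 0.51 for miR-3535 and 0.60 for miR-5099. The miRNAs most like miR-3968 were miR-190a-5p (r = 0.77), miR-30b-5p (0.76) and miR-217-3p (0.76). Those most like miR-6240 were miR-200b-5p (0.76), miR-27a-5p (0.76) and miR-672-5p (0.75). miR-1957a was most like miR-1843a-5p (0.83), let-7i-5p (0.75) and miR-676-3p (0.72). miR-5099 was most like miR-217-5p, an acinar marker (0.85), miR-374b-5p (0.85) and miR-30e-3p (0.84).

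miR-3535 was most like miR-664-5p (0.75), whose sequence matches the snoRNA Snora36b exactly, miR-184-3p (0.71) and miR-30a-5p (0.70). Its correlation with miR-664-3p, the other arm of that hairpin, was -0.72, the lowest of all 350. Of the 27 miRNAs with an exact match to a transcript of another small RNA class, 16 besides miR-3535 were among the 351. The 16 were put together as a set after the values were seen. Their median correlation with miR-3535 was 0.21 (range from -0.72 to 0.75), 11 of 16 being positive, against a median of -0.019 and 167 positive over all 350. Their median log2 difference from control was 0.22 with caerulein 100 nM, 0.15 with caerulein 100 pM, 0.0017 with TLC-S 250 uM and 0.034 with TLC-S 62.5 uM. In the same order miR-3535 was at 0.24, 0.70, 0.092 and 0.76.

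Other late or unsuffixed entries were counted in the same way. The 23 further tested miRNAs numbered 1900 or more (of 1012 such names in the table, members included) had a median log2 difference from control of 0.23 with caerulein 100 nM, 0.17 with caerulein 100 pM, 0.12 with TLC-S 250 uM and -0.040 with TLC-S 62.5 uM. The 22 further tested entries without an arm suffix had medians of 0.17, 0.21, 0.055 and 0.085 in the same order. The list of entries reported to resemble other RNAs held 6 tested miRNAs, namely both arms of miR-664 and miR-1839, miR-1291 and miR-1983. Their medians were 0.32, 0.35, 0.096 and 0.14, and 4, 6, 5 and 3 of 6 were above 0, against 185, 180, 158 and 171 of the 351. Over all 351 the medians were 0.032, 0.010, -0.034 and -0.0099. The lists overlap and are not separate results. miR-1983 was in each of them, and miR-1291, miR-1839-5p and both arms of miR-664 were also in the set with exact matches.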

How the data were processed

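Cutadapt and Bowtie were run against GRCm38 (mm10), per the submitters' processing notes, which give no versions and no counting tool here. The values deposited per mature miRNA are estimated counts. All were whole and lay within 0.5 of the sums of the authors' estimated counts per precursor, of which 74.0% were whole within 1e-06; each member had a single precursor. The deposited RPM, used for alternatives, matched the scaled precursor counts within 0.0313.

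Groups were read from sample titles. In edgeR 4.0.16 under R 4.3.3, a quasi-likelihood model with a mean for each of the 5 groups was fitted to the 15 libraries after TMM scaling and filterByExpr (at least 10 counts, total 15). Adjustment was by Benjamini-Hochberg over 351 miRNAs at 0.05. Differences for 8 pairs of groups carry the SE and 95% interval of that model. The F test of the number series added the title series to it. Log2 levels used a prior count of 2, errors of levels are SD, and depth correlations used 100000 two-sided permutations. Reads carry no molecular tags, so counts give counting error only.

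The members and lists were chosen with earlier results of these data known. Named miRNAs were the members, the 3 most correlated with each, and members of the lists. Alternatives comprised RLE, upper quartile and library-total scaling, removal of the 3 most abundant miRNAs, other filters (none, or a mean of 10 CPM), robust dispersion, DESeq2 1.42.0, limma 3.58.1 on log2 RPM with pseudocounts of 1 and 10, precursor counts, a replicate block, and each library left out. The RefSeq sequence table matched 1623 of 1915 mature names; hairpins were folded with RNAfold 2.7.2. No sequence of miR-1957a and no mature sequence of miR-5099 was used here.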

Additional observations from a re-analysis of the deposited data

How the results depend on the processing

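Each of the 40 group differences of the members was recomputed under 27 alternatives. Of these 1080 values, 26 moved by more than the SD between replicates, and 38, in 12 of the 40 differences, changed sign; causes were not tested. The sign turned in 14 of 27 alternatives for miR-5099 in TLC-S 250 uM minus control and in 5 of 27 in caerulein 100 nM minus control, where the differences were near 0. It turned to -0.13 for miR-1957a in TLC-S 62.5 uM minus control without TLC-S 62.5 uM replicate 3. With library totals, the log2 difference of miR-3968 was 0.47 for caerulein 100 pM minus control, 0.59 for caerulein 100 nM minus 100 pM and 2.16 for caerulein 100 pM minus TLC-S 62.5 uM, where the median of all miRNAs shifted by -0.24, 0.29 and -0.34. With limma at a pseudocount of 1 these differences were 0.50, 0.58 and 2.06, and at 10 they were 0.41, 0.51 and 1.53. Limma gave miR-3968 -1.56 and -1.12 for TLC-S 62.5 uM minus control and, at 10, 1.10 for TLC-S 250 uM minus 62.5 uM. For caerulein 100 pM minus TLC-S 62.5 uM it gave miR-3535 -0.47 and -0.45, and miR-5099 0.68 at 10. At 10, caerulein 100 pM minus control was 0.92 for miR-6240 and 0.66 for miR-1957a, and TLC-S 250 uM minus control was 0.72 for miR-1957a. These RPM are scaled by library totals as well as shifted by the pseudocount.

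Leaving out 1 library at a time, the log2 difference of miR-6240 ran from 1.20 to 1.96 for caerulein 100 nM minus control, from 1.04 to 1.76 for TLC-S 250 uM minus control and from 0.049 to 1.46 for TLC-S 62.5 uM minus control. It ran from -0.080 to 1.21 for TLC-S 250 uM minus 62.5 uM and from 0.21 to 1.49 for caerulein 100 pM minus TLC-S 62.5 uM, with the highest value in both without TLC-S 62.5 uM replicate 3. For caerulein 100 pM minus control, miR-1957a ran from 0.57 to 1.95 and miR-3535 from 0.31 to 0.93, each lowest without caerulein 100 pM replicate 2. Without that library miR-1957a was at 0.13 for caerulein 100 nM minus 100 pM, and the range was from -1.23 to 0.13.

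With library totals, 2 of 5 members did not overlap control with caerulein 100 pM, and 1 was apart between the caerulein doses. With upper quartile scaling, or without the 3 most abundant miRNAs, 1 was apart between the TLC-S doses. The share of all 351 miRNAs was counted in the main analysis only, at 10.3%, 5.7% and 12% for these comparisons in the same order. It was not counted under these alternatives, so nothing is read from the member counts. The number series test called 12 miRNAs with library totals, 36 with DESeq2 and 11 and 6 with limma, against 23 with edgeR, and from 1 to 54 with 1 library left out (without caerulein 100 pM replicate 1 and without TLC-S 62.5 uM replicate 3). With a library left out, the adjusted p of miR-5099 ran from 0.0138 to 0.225 (edgeR). The correlation with depth was -0.053 without the 2 farthest libraries and -0.030 with library totals for miR-3968, -0.14 and -0.067 for miR-5099, and -0.51 for miR-1957a with library totals, with an unadjusted permutation p of 0.0494.

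The title numbers were also used as a replicate block. Over 30 same-numbered pairs the correlation of deviations ran from -0.12 to 0.40, with a median of 0.099 against -0.034 for other numbers. As a hint from the data, 11 of 15 libraries correlated best with their own series. Only 15 pairs were over 0.1, where all were required, so the numbers were not taken as pairing the samples. With the replicate block, miR-3968 was at -1.77 for TLC-S 62.5 uM minus control and miR-1957a at 1.39 for caerulein 100 pM minus control, and no member difference changed direction. Depth limits miR-1957a most, at 12 to 94 counts a library.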
